A study of Mus musculus with 15 samples.

Results

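The NR4A orphan nuclear receptors are 3 transcription factors, Nr4a1 (Nur77), Nr4a2 (Nurr1) and Nr4a3 (Nor1). They were taken as the probe sets whose platform annotation gives exactly one of these symbols. Each gene had 1 such probe set, and so 3 of the 19937 genes tested were described. NR4A proteins work as immediate early gene products: they are made quickly after a stimulus, need no known natural ligand, and bind DNA as monomers at the NBRE element AAAGGTCA or as dimers. Nr4a1 and Nr4a2 can also pair with the retinoid X receptor, which Nr4a3 does not do. In T cells, calcium signals through calcineurin, MEF2 and NFAT switch these genes on, and in other cells cyclic AMP does so through CREB. In myeloid cells the family is known for limiting inflammatory gene expression and for links to cell death and migration.

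Transcript levels were measured on 15 Affymetrix Mouse Gene 1.0 ST arrays in D1 cells, a long-term dendritic cell (DC) line from the spleen of C57BL/6 mice. There were 5 groups of 3 arrays: curdlan with FK506 for 2 h, curdlan with FK506 for 4 h, curdlan alone for 2 h, curdlan alone for 4 h, and nontreated cells. Curdlan, a beta-glucan that engages the receptor dectin-1, was given at 10 µg/ml, and FK506 blocks calcineurin, the phosphatase that lets NFAT enter the nucleus. D1 is a single line kept in fibroblast supernatant with GM-CSF, and cells given FK506 without curdlan are not analysed here. The labels call the arrays biological replicates without saying what separates them, so that p-values measure the spread between these arrays. Levels are log2 values after RMA normalization. A gene was called higher or lower where limma gave an adjusted p below 0.05 and the fold change reached 1.5, and every adjusted p below comes from that fit over all genes. The same 3 nontreated arrays served every comparison with nontreated cells, and the curdlan arrays served both the curdlan and the FK506 comparisons.

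Arrays of 1 group correlated at 0.993 or more over all genes. Replicate 3 of curdlan 2 h and replicate 1 of the nontreated cells were apart from the rest (array weights 0.119 and 0.0781), and values without both are given beside the results. Of 18 conventional DC markers, 15 lay above the median gene in nontreated cells, among them Itgax (12.1), H2-Aa (12.7) and Zbtb46 (8.83), whereas Flt3 (5.93), Clec9a (4.27) and Xcr1 (5.08) did not. Of 11 macrophage markers, 7 also lay above it, among them Csf1r (12), Adgre1 (11.7), C1qb (11.4) and Fcgr1 (10.6), whereas Cd14 (6.29), Mrc1 (5), Marco (6.07) and Timd4 (5.39) did not. The summed level of the 11 was 94.46 to 95.14 with FK506 and 96.65 to 97.12 with curdlan alone at 2 h, 93.51 to 93.76 and 95.07 to 95.63 at 4 h, and 95.22 to 96.39 in nontreated cells. The markers did not move together. Mertk (6.98 with FK506 and 8.51 with curdlan alone at 2 h, 6.17 and 8.38 at 4 h) and Cd14 (6.46 and 7.01, 6.51 and 7.41) were lower with FK506. Csf1r (12 and 11.9, 11.8 and 11.5) and C1qa (10 and 9.85, 9.97 and 9.6) had slightly higher means with FK506, as had C1qb and C1qc. None of the 11 was called higher with FK506 at either time. The part of these markers in the results was not tested. Of 10 T cell markers, the cells in which NR4A induction is best known, only Cd5 lay above the median gene, and Cd3e stood at 6.18 in nontreated cells. Clec7a, the gene of dectin-1, stood at 10.5 and 10.6 with FK506 at 2 h and 4 h, at 10.4 and 10.6 with curdlan, and at 10.4 in nontreated cells.

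The promoters of the 3 genes are shown because the genes moved together with curdlan and apart with FK506, and because a motif of the CREB family is repeated in each of them. RefSeq windows (GRCm38.p6) reach from 250 bases before to 50 bases after the transcript start, and all 3 genes matched 1 window each. Nr4a1 lies at chr15:101266596-101266895 on the plus strand, Nr4a2 at chr2:57123954-57124253 on the minus strand, and Nr4a3 at chr4:48045055-48045354 on the plus strand. Capitals mark TGACG, the core of the cyclic AMP response element (CRE), on either strand, so that it can read CGTCA.
Nr4a1: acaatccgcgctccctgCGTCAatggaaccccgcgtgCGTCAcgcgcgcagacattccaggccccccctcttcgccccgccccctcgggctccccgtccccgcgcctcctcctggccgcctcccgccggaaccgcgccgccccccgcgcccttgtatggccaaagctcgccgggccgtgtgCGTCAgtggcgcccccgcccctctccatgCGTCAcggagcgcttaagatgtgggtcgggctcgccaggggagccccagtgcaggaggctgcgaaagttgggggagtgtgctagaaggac
Nr4a2: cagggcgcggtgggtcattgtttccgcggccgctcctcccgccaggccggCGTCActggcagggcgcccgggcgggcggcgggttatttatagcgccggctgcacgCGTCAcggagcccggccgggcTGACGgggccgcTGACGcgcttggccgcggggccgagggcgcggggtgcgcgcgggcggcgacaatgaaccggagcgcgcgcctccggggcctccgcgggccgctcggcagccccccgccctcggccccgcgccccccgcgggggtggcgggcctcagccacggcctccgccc
Nr4a3: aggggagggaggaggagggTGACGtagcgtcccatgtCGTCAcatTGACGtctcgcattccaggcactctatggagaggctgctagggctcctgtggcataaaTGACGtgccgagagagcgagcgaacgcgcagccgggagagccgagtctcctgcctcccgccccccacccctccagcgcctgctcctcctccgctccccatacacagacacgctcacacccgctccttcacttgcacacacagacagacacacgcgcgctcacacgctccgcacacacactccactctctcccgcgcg
Each window held TGACG 4 times on the 2 strands together. Of 32851 mouse promoter windows of the same length, 20.8% held it at least once and 0.231% held it 4 times or more. The NR4A windows are rich in G and C, at 72.3% for Nr4a1, 81.7% for Nr4a2 and 64.7% for Nr4a3, where the median window has 52.7%. The full palindrome TGACGTCA (1.79% of windows) was in 0 of the 3. The NFAT motif GGAAAA (23.4% of windows), the AP-1 motif TGAGTCA (5.2%) and the NBRE AAAGGTCA (1.51%) were also in 0 of the 3 on either strand, which says only that these letters are not in these windows. The shorter NFAT core GGAAA (61.3%) was found once, in Nr4a2, beginning 230 bases before the start. A MEF2 match (1.86% of windows, both strands) was found in Nr4a2 alone, 167 bases before the start, where it overlaps the single TATAAA (13.6%). An NF-kB match (4.51%) was found in Nr4a1 alone, across the start site. Exact matches to the serum response element pattern (1.63%) were found in none, and looser matches were not searched.

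**Figure D1:**
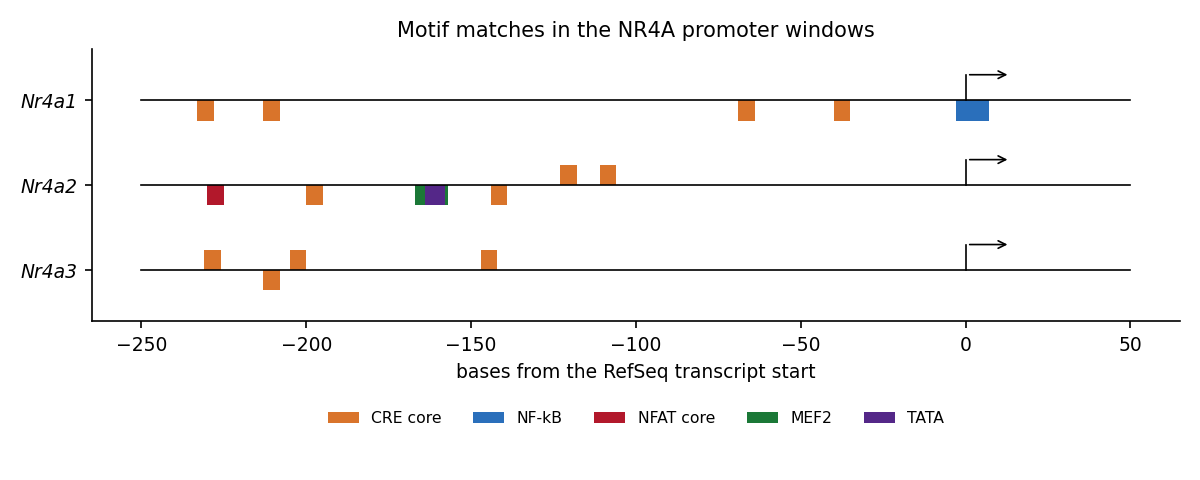
Positions of motif matches (coloured blocks, plus strand above and minus strand below each line) in the promoter windows of the 3 NR4A genes, with distance in bases from the RefSeq transcript start (arrow) on the horizontal axis. Each gene has 4 CRE cores, all upstream of the start, and the MEF2 and TATA matches overlap in Nr4a2.

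Curdlan raised Nr4a1 more than it raised either relative at 2 h, and FK506 took back part of that rise. With curdlan and FK506 at 2 h its log2 level was 10.52, 10.45 and 10.6, against 12.05, 12.09 and 11.94 with curdlan alone. At 4 h it was 9.95, 9.757 and 9.824 with FK506, against 11.05, 11.09 and 11.16 with curdlan alone. Nontreated cells had 6.701, 6.648 and 6.527, close to the median of all genes (47.5 percent of genes lay below). No 2 of the 5 groups overlapped, and the order of the group means was curdlan 2 h (12.03), curdlan 4 h (11.1), FK506 2 h (10.52), FK506 4 h (9.844) and nontreated (6.625).

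Relative to nontreated cells Nr4a1 rose 42.3-fold at 2 h (log2 fold change 5.40 ± 0.07, SE, 3 arrays per group, adjusted p = 5.80e-15) and 22.2-fold at 4 h (4.47 ± 0.07, adjusted p = 1.90e-14). Its rise ranked 4 among all genes at 2 h and 14 at 4 h. FK506 lowered it to 35.2% of the curdlan level at 2 h (-1.51 ± 0.07, adjusted p = 7.55e-09) and to 41.9% at 4 h (-1.26 ± 0.07, adjusted p = 3.02e-08). Even so it stood 14.9-fold (3.90 ± 0.07) above nontreated cells at 2 h with FK506, and 9.31-fold (3.22 ± 0.07) above them at 4 h. Between 2 h and 4 h it fell by 0.93 with curdlan alone (adjusted p = 2.08e-07) and by 0.68 with FK506 (adjusted p = 9.25e-06). Without both arrays that stood apart, the rise at 2 h was 5.49 and the FK506 effect at 2 h was -1.55. In bulk samples fewer cells of a type and less RNA per cell cannot be told apart.

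Nr4a2 was the member with the smallest rise and the largest FK506 effect, and with FK506 it was not called above nontreated cells. It had log2 levels of 9.31, 9.234 and 9.347 with curdlan and FK506 at 2 h, against 11.42, 11.5 and 11.29 with curdlan alone. At 4 h the levels were 8.99, 8.996 and 9.045 with FK506, against 10.61, 10.71 and 10.65 with curdlan alone. Nontreated cells already held 9.522, 9.454 and 9.464, above 79.7 percent of genes. All FK506 values thus lay below all nontreated values. The groups ran from curdlan 2 h (11.4) through curdlan 4 h (10.66), nontreated (9.48) and FK506 2 h (9.297) down to FK506 4 h (9.01), without overlap between neighbours.

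Curdlan raised Nr4a2 3.78-fold at 2 h (1.92 ± 0.05, adjusted p = 1.37e-11) and 2.26-fold at 4 h (1.18 ± 0.05, adjusted p = 9.72e-10). FK506 lowered it to 23.3% of the curdlan level at 2 h (-2.10 ± 0.05, adjusted p = 3.89e-11) (rank 12 among the falls of all genes) and to 31.9% at 4 h (-1.65 ± 0.05, adjusted p = 3.45e-10). Set against nontreated cells, FK506-treated cells differed by -0.18 ± 0.05 at 2 h (adjusted p = 0.0345) and by -0.47 ± 0.05 at 4 h (adjusted p = 1.55e-05), both short of the 1.5-fold threshold. The adjusted p at 2 h ran from 0.00267 to 0.156 over the alternatives. From 2 h to 4 h Nr4a2 fell by 0.74 with curdlan alone (adjusted p = 2.82e-07), and the difference with FK506 was -0.29 ± 0.05, which was not called. Without both arrays that stood apart, the rise at 2 h was 2.00 and the FK506 effect -2.16.

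Nr4a3 kept most of its rise with FK506 and was the member that did not fall back by 4 h. Its log2 level was 11.17, 11.07 and 11.27 with curdlan and FK506 at 2 h, against 12.01, 12.03 and 11.86 with curdlan alone. At 4 h it was 11.95, 11.99 and 11.98 with FK506, against 12.36, 12.39 and 12.35 with curdlan alone. The nontreated arrays had 7.616, 8.043 and 8.004, and the low value belongs to replicate 1, which stood apart over all genes. The order of means was curdlan 4 h (12.36), FK506 4 h (11.98), curdlan 2 h (11.97), FK506 2 h (11.17) and nontreated (7.888). The FK506 4 h and curdlan 2 h values overlapped, and the other neighbours did not.

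Relative to nontreated cells Nr4a3 rose 16.9-fold with curdlan at 2 h (4.08 ± 0.09, adjusted p = 1.49e-12) and 22.3-fold at 4 h (4.48 ± 0.09, adjusted p = 3.38e-13) (ranks 11 and 13 among all genes). FK506 lowered it to 57.6% of the curdlan level at 2 h (-0.80 ± 0.09, adjusted p = 7.30e-05). At 4 h the level with FK506 was 76.3% of that with curdlan alone (-0.39 ± 0.09, 95% interval -0.59 to -0.19, adjusted p = 0.0133), which did not reach the fold threshold although the groups did not overlap. Above nontreated cells it stood 9.73-fold (3.28 ± 0.09) with FK506 at 2 h and 17.0-fold (4.09 ± 0.09) at 4 h, where its rise ranked 7 among all genes. From 2 h to 4 h it rose by 0.81 ± 0.09 with FK506 (adjusted p = 3.85e-05), and the difference with curdlan alone was 0.40 ± 0.09 (adjusted p = 0.00583), not called. Without both arrays that stood apart, the rises at 2 h and 4 h were 4.00 and 4.34, and the FK506 effect at 2 h was -0.85.

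**Figure D2:**
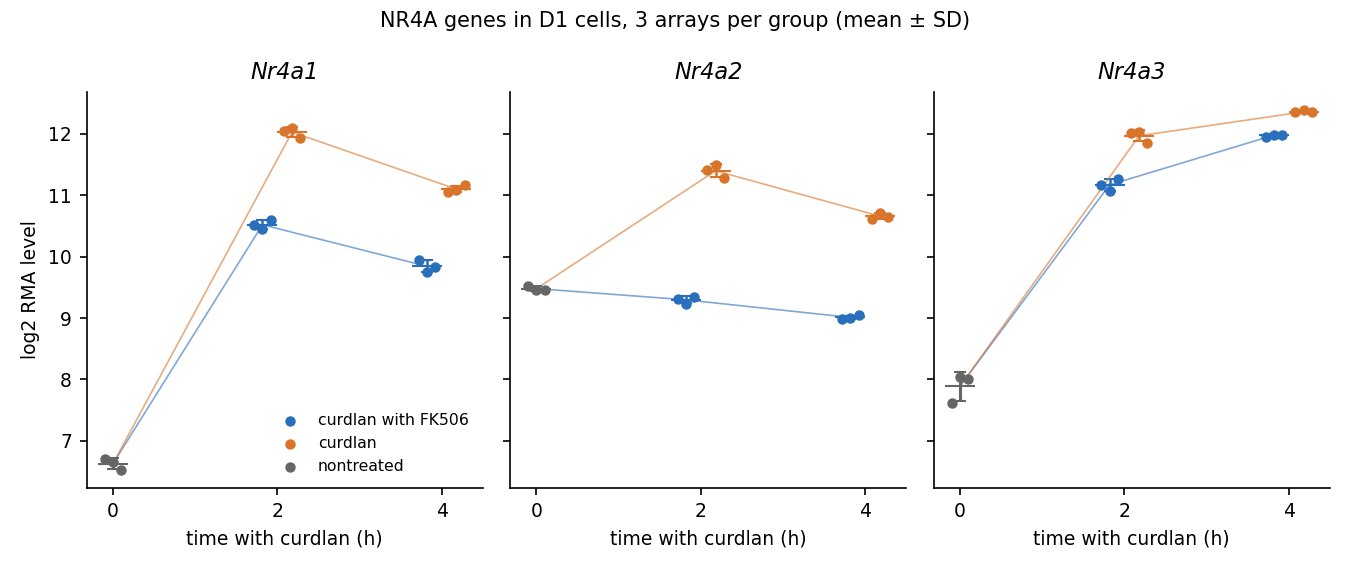
Log2 RMA level (vertical axis) of the 3 NR4A genes against time with curdlan (horizontal axis, h), with a point for every array and bars for the SD around the group mean (n = 3); nontreated cells stand at 0 h. With FK506 Nr4a2 stayed below its nontreated mean of 9.48, whereas Nr4a3 reached 11.98 at 4 h.

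As a group, 3 of 3 members were higher with curdlan at 2 h and 3 of 3 at 4 h. Among all genes 2.2% were called higher and 1.4% lower at 2 h, and 5.05% higher and 4.15% lower at 4 h. FK506 lowered 3 of 3 members at 2 h, where 0.762% of all genes were called lower and 0.361% higher. At 4 h it lowered 2 of 3, where 1.53% of all genes were called lower and 0.211% higher. Against nontreated cells, FK506-treated cells had 2 of 3 members higher at both times, with 1.81% of all genes higher and 0.537% lower at 2 h, and 2.95% higher and 2.43% lower at 4 h. Between the times 2 of 3 members fell with curdlan alone, where 1.3% of all genes fell and 2.79% rose. With FK506, 1 of 3 rose and 1 of 3 fell over the same interval, where 0.903% of all genes rose and 0.782% fell.

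**Figure D3:**
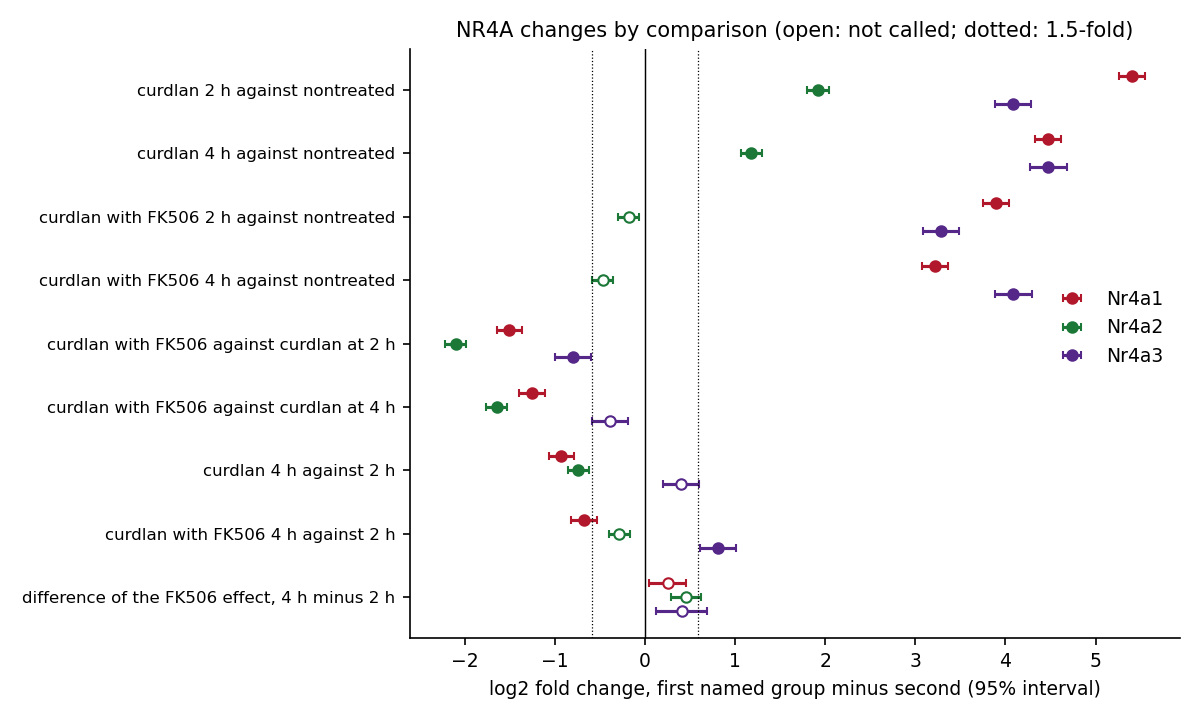
Log2 fold change with its 95% interval (horizontal axis) of each NR4A gene in the 9 comparisons (vertical axis), first named group minus second. Filled points were called and open points were not; dotted lines mark a 1.5-fold change. The FK506 effect at 2 h was -2.10 for Nr4a2, -1.51 for Nr4a1 and -0.80 for Nr4a3.

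To ask if members moved by unequal amounts, the difference between 2 members within each array was compared between groups. This was done for 18 combinations of member pair and comparison. With 3 arrays against 3, an exact two-sided permutation test cannot give a p under 0.1, so none can pass 0.05. In 17 of the 18 the groups did not overlap and the exact p was 0.1 (0.106 after Benjamini-Hochberg adjustment over the 18). These 17 are not separate results, since the pairs share members and the comparisons share arrays. How often other pairs of genes fail to overlap was not counted, so the count cannot be set against a share over all genes. At 2 h the Nr4a1 minus Nr4a2 difference was 1.21 to 1.253 with FK506 and 0.598 to 0.65 with curdlan alone, a shift of 0.60. The Nr4a2 minus Nr4a3 difference was -1.923 to -1.84 with FK506 and -0.595 to -0.532 with curdlan alone, a shift of -1.31. The Nr4a1 minus Nr4a3 difference shifted by -0.71 with FK506 at 2 h and by -0.87 at 4 h. The exception was Nr4a1 minus Nr4a3 at 4 h against nontreated cells, which differed by -0.003 with overlapping groups (exact p = 1).

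The FK506 effect was next compared between the times. It was smaller at 4 h than at 2 h in each member, by 0.46 ± 0.08 for Nr4a2 (95% interval 0.29 to 0.62, adjusted p = 0.00366), by 0.41 ± 0.13 for Nr4a3 (0.12 to 0.69, adjusted p = 0.118) and by 0.25 ± 0.09 for Nr4a1 (0.05 to 0.45, adjusted p = 0.184). None reached a 1.5-fold difference, so 0 of 3 members were called, where 0.171% of all genes were called in that direction and 1.06% in the opposite one. Without both arrays that stood apart, the differences were 0.51 (adjusted p = 0.000183), 0.46 (adjusted p = 0.000729) and 0.30 (adjusted p = 0.0462) for Nr4a2, Nr4a3 and Nr4a1. The curdlan rise itself also changed, from 1.92 at 2 h to 1.18 at 4 h for Nr4a2 and from 5.40 to 4.47 for Nr4a1. For Nr4a3 it went from 4.08 to 4.48. The FK506 effect as a part of the rise was not tested.

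Calls among the other nuclear receptor genes were at about the share of all genes. Of 42 other nuclear receptors measured (46 listed), 0 were called higher with curdlan at 2 h (10 had an unadjusted limma p below 0.05, and 2.2% of all genes were called), and Nr2c2, an orphan receptor, was lower (-0.61, where 1.4% of all genes were called). The call of Nr2c2 was lost without nontreated replicate 2 or without curdlan 2 h replicate 3. At 4 h the vitamin D receptor gene Vdr (0.92) and the orphan receptor gene Nr6a1 (0.81) were higher and the estrogen receptor gene Esr1 (-0.78) was lower, where 5.05% and 4.15% of all genes were called. Of all genes, 0.361% were called higher and 0.762% lower with FK506 at 2 h, and 0.211% and 1.53% at 4 h. FK506 raised Vdr at 2 h (0.64), a call lost after repeated quantile normalization, and at 4 h 0 of 42 were called in either direction (8 had an unadjusted p below 0.05), with Rarg at -0.37 and Esr1 at 0.32. The median log2 change of the 42 was -0.01 at 2 h and -0.14 at 4 h, beside -0.04 and -0.12 over all genes. The retinoid X receptors, which can pair with Nr4a1 and Nr4a2, showed 0 calls among 3 in each of these comparisons (1 of 3 had an unadjusted p below 0.05), with Rxra at 0.05 and Rxrb at -0.33 at 2 h.

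**Figure D4:**
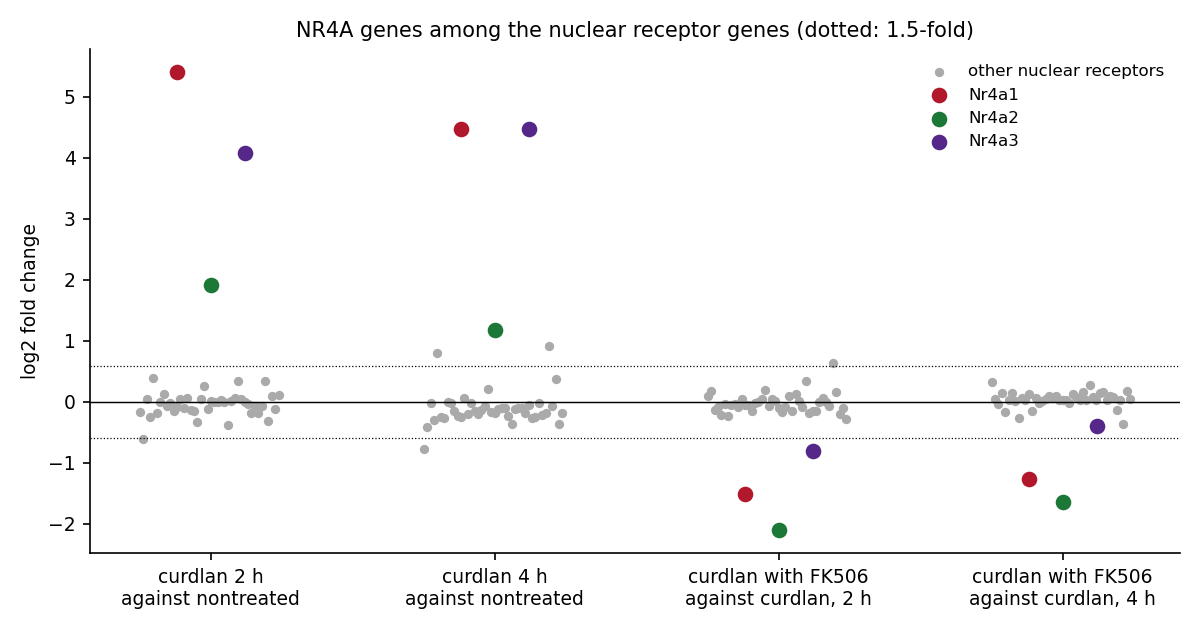
Log2 fold change (vertical axis) of the 3 NR4A genes and of 42 other nuclear receptor genes (grey) in the curdlan and FK506 comparisons (horizontal axis); dotted lines mark a 1.5-fold change. The 3 NR4A genes lie above every grey point with curdlan at both times.

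Of 12 transcriptional cofactors measured, some of which bind NR4A proteins, 0 rose with curdlan. Ppargc1a, the coactivator PGC-1alpha, fell at 2 h (-0.70) and 4 h (-1.38), and Ncoa1 (-0.63) and the corepressor gene Trim28 (-0.61) fell at 4 h. The falls were 1 of 12 at 2 h and 3 of 12 at 4 h. Among all genes 2.2% were called higher and 1.4% lower at 2 h, and 5.05% and 4.15% at 4 h. Of all genes, 0.361% were called higher and 0.762% lower with FK506 at 2 h, and 0.211% and 1.53% at 4 h. With FK506 0 of 12 were called at either time (unadjusted p below 0.05 in 4 at 2 h and in 5 at 4 h), with Ncoa3 at -0.25 and Hdac7 at 0.20 at 2 h, and Ppargc1a at 0.54 and Ncoa1 at 0.19 at 4 h. The count at 4 h became 1 without curdlan 4 h replicate 2 and with array weights, and the call at 2 h with curdlan was lost with the mean of a gene's probe sets.

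RNA levels of the transcription factors and calcineurin subunits that are known to switch NR4A genes on were read next. Of 21 measured, 14 at 2 h and 15 at 4 h had an unadjusted p below 0.05 with curdlan. Nfatc1 (0.86) and the CREB coactivator gene Crtc2 (0.59) rose at 2 h, so that 2 of 21 were called higher and 0 lower. Among all genes 2.2% were called higher and 1.4% lower at 2 h. At 4 h Crtc2 (0.82) and Nfatc1 (0.77) were higher, and Mef2c (-1.06) and Nfatc2 (-0.70) were lower, so that 2 of 21 were called in each direction, where 5.05% of all genes were higher and 4.15% lower. Mef2d, the MEF2 factor tied to Nr4a1 induction in T cells, was at 0.02 and -0.11, the calcineurin catalytic subunit gene Ppp3ca at -0.08 and -0.39 (adjusted p = 0.000144 at 4 h), and the regulatory subunit gene Ppp3r1 at -0.04 and -0.06, none of them called. Of all genes, 0.361% were called higher and 0.762% lower with FK506 at 2 h, and 0.211% and 1.53% at 4 h. With FK506 0 of the 21 were called at either time (unadjusted p below 0.05 in 6 at 2 h and in 8 at 4 h). The largest values were those of Nfatc1 (-0.58, then -0.40) and Nfatc2 (0.45, then 0.43). Their limma adjusted p was 3.98e-06 and 9.27e-05 for Nfatc1, and 1.11e-05 and 1.09e-05 for Nfatc2. Only the 1.5-fold threshold was not reached, and Nfatc1 at 2 h was close to it (1.493-fold). The count with FK506 at 2 h became 1 gene lower without curdlan 2 h replicate 3 or without FK506 2 h replicate 1 or 3, and the 2 rises with curdlan at 2 h became 1 without nontreated replicate 1 or without curdlan 2 h replicate 2.

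Genes known to respond to calcineurin were read beside the family. Rcan1, a calcineurin inhibitor that NFAT induces, rose by 1.38 with curdlan at 2 h and was at 0.58 at 4 h (not called), and FK506 lowered it by -1.57 at 2 h and -0.69 at 4 h. With FK506 it stood at -0.19 relative to nontreated cells at 2 h, which was not called, as was the case for Nr4a2. Egr2 and Egr3, zinc finger factors downstream of NFAT, were lowered by -1.59 and -1.10 at 2 h and by -1.35 and -0.78 at 4 h. Unlike Rcan1, both were still called above nontreated cells with FK506 at 2 h (Egr2 0.79, Egr3 1.97). At 4 h with FK506 Egr2 was at 0.03, not called, and Egr3 at 1.12, called higher. Il2 was lowered by -1.61 and -1.83, and its level with FK506 at 2 h was 9.498. Nontreated cells had 4.83, under the log2 level of 6 used as a limit for low signals, so that its distance from nontreated cells is not given. Actb was at 0.010 and 0.005 with curdlan and at 0.009 and 0.003 with FK506, not called.

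Immediate early genes, the class to which the NR4A genes belong, mostly rose with curdlan, and a smaller number were lowered by FK506. Of 40 measured without the NR4A genes, 30 rose and 2 fell at 2 h, with Atf3 (4.39), Rgs1 (3.56), Gadd45b (3.56) and Egr3 (3.07) highest (Rgs1 was at 5.06 in nontreated cells, a low signal), and the dual-specificity phosphatase gene Dusp6 (-0.82) and the kinase gene Sik1 (-1.07) lowered. At 4 h 24 rose and 3 fell. Among all genes 2.2% were called higher and 1.4% lower at 2 h, and 5.05% and 4.15% at 4 h. The list medians were 1.30 and 0.97, beside -0.04 and -0.12 over all genes. FK506 lowered 5 of 40 at 2 h (0.762% of all genes, and 28 of the 40 had an unadjusted p below 0.05), namely Egr2, Egr3, the polo-like kinase genes Plk3 (-1.02) and Plk2 (-0.99), and Dusp2 (-0.89), and raised Fosb (1.63). The list median with FK506 was -0.22 at 2 h and -0.08 at 4 h, beside -0.03 and 0.03 over all genes. At 4 h it lowered 8 of 40 (1.53% of all genes, and 21 of the 40 had an unadjusted p below 0.05), with Egr2 (-1.35), Plk2 (-1.31), Plk3 (-1.24) and Dusp2 (-0.96) first, and raised Fosb (1.46). Between the times 11 of 40 fell and 2 rose with curdlan alone, where 1.3% of all genes fell and 2.79% rose. Egr3 (-1.17), Ier2 (-1.09), Fosb (-1.07) and Egr1 (-1.06) fell like Nr4a1 and Nr4a2, whereas Rgs1 (1.08) and Plk2 (0.68) rose.

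Genes that other work has tied to NR4A proteins were described without any claim that these factors act on them here. Of 14 cell death genes measured, Cflar (2.03), which blocks caspase-8, Bcl2l1 (1.39), which protects mitochondria, and the death receptor gene Fas (1.02) rose at 2 h. These were 3 of 14, where 2.2% of all genes were called higher. At 4 h 6 of 14 rose, now with Fas at 2.77, Cflar at 2.70, Bcl2l1 at 1.61 and the pro-apoptotic Bcl2l11 (Bim) at 1.18, and Casp9 fell (-0.81). Among all genes 5.05% were called higher and 4.15% lower at 4 h. Bcl2, whose product NR4A1 can bind, was at 0.005 and -0.43 with curdlan, not called, and with FK506 at 4 h it was lower than in nontreated cells (-0.64). With FK506 0 of the 14 were called at 2 h, where Bcl2 was at -0.24 and Tnfsf10 at -0.22. At 4 h 2 of 14, Tnfsf10 (-0.95) and Fas (-0.72), were called lower. Among all genes 0.762% were called lower at 2 h and 1.53% at 4 h. Tnfsf10 was at 4.50 with FK506 and 5.46 with curdlan alone at 4 h, both under the low-signal limit, and its call was lost where only genes reaching log2 6 were tested.

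Of 22 genes tied to the family in myeloid cells, 5 rose and 1 fell at 2 h, with the cytokine genes Il1b (4.22) and Tnf (1.97) and the factor gene Irf8 (1.59) in front and Foxo3 (-0.65) lowered. At 4 h 9 rose and 1 fell. Among all genes 2.2% were called higher and 1.4% lower at 2 h, and 5.05% and 4.15% at 4 h. The migration receptor gene Ccr7 rose at 4 h (1.08) together with Foxo1 (0.63), and Idh1 (-1.29) fell. FK506 lowered 3 of 22 at 2 h, the efferocytosis receptor gene Mertk (-1.52), the chemokine gene Ccl2 (-1.09) and the lipid exporter gene Abca1 (-0.91), and 5 at 4 h, led by Mertk (-2.20), Ccl2 (-1.46), Nos2 (-1.06) and Il6 (-0.87, with both levels under log2 6). Among all genes FK506 lowered 0.762% at 2 h and 1.53% at 4 h. Ccr7 was at 0.09 and -0.53 with FK506, not called. The single fall with curdlan at 2 h became 2 without nontreated replicate 1 or without curdlan 2 h replicate 2.

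Of 20 genes tied to the family in T cells, 3 rose at 2 h and 8 at 4 h, and 0 fell. Among all genes 2.2% were called higher and 1.4% lower at 2 h, and 5.05% and 4.15% at 4 h. The genes that rose included the checkpoint ligand genes Cd274 (PD-L1, 0.68 and 2.06) and, at 4 h, Pdcd1lg2 (PD-L2, 1.54), with the costimulatory receptor gene Tnfrsf4 (2.06) and the factor gene Batf (1.70). FK506 raised Pdcd1lg2 at 2 h (1.004) and lowered Tnfrsf4 at 4 h (-1.67), and these were the 2 FK506 calls of the list, with 2 genes raised at 2 h without curdlan 2 h replicate 3. Among all genes FK506 raised 0.361% at 2 h and lowered 1.53% at 4 h. The 20 genes had a median of 0.02 at 2 h and -0.06 at 4 h with curdlan, beside -0.04 and -0.12 over all genes. The median thus stayed near that of all genes although the share called higher was larger.

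The genes with the most similar course differed between the members. Over the 15 arrays, and among 806 other genes whose group means spanned at least 1 log2 unit, the genes with the highest Pearson r to Nr4a1 were Ptx3 (0.994), a secreted pattern recognition protein, the growth factor gene Pdgfa (0.990), Csrnp1 (0.989), Tnfsf9 (0.987) and Pvr (0.987). Those of Nr4a2 were Ch25h (0.990), which makes 25-hydroxycholesterol, the chemokine gene Ccl7 (0.989), the protease gene Adamts6 (0.989), Fam107b (0.987) and the CD30 ligand gene Tnfsf8 (0.979). Those of Nr4a3 were Tnfaip2 (0.994), the NF-kB subunit gene Rel (0.991), the IkB family gene Nfkbid (0.991), Rgs1 (0.989) and Fam167a (0.989). The members themselves correlated at 0.917 (Nr4a1 and Nr4a3), 0.609 (Nr4a1 and Nr4a2) and 0.375 (Nr4a2 and Nr4a3). These values describe 15 arrays in 5 groups that share the same treatments and normalization, and carry no test.

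By size as well as shape, measured as the root mean square log2 difference of the 4 curdlan-treated group means after subtraction of the nontreated mean, Fam107b (0.198), Tnfsf8 (0.213), Hook1 (0.388), Adamts6 (0.395) and the receptor kinase gene Grk5 (0.403) lay nearest to Nr4a2. With FK506 at 2 h these 5 genes stood between -0.37 and 0.24 log2 units from their nontreated means. The neighbours of each member were chosen by means that include the FK506 groups, so a like course with FK506 follows from the choice. Nearest to Nr4a3 were the DC maturation marker Cd83 (0.276), Rgs1 (0.32), Il1b (0.442), the probe set annotated Mir155 (0.457) and Atf3 (0.534). Nr4a1 had no neighbour as close, with Atf3 at 0.729, Il23a at 0.812, Il1b at 0.817, Cd83 at 0.839 and Nr4a3 at 0.849. Fam107b (-1.68 at 2 h and -1.74 at 4 h) and Tnfsf8 (-1.72 and -1.87) were lowered by FK506 at both times, and Cd83 (-0.26 and -0.25) and Atf3 (-0.13 and -0.01) were not called. The further neighbours of Nr4a3 also had lower means with FK506. Rgs1 stood at 8.242 with FK506 and 8.62 with curdlan alone at 2 h, and at 8.822 and 9.698 at 4 h. Mir155 stood at 8.791 and 8.847, then at 9.22 and 9.833, and Il1b at 12.35 and 12.46, then at 12.55 and 12.93.

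**Figure D5:**
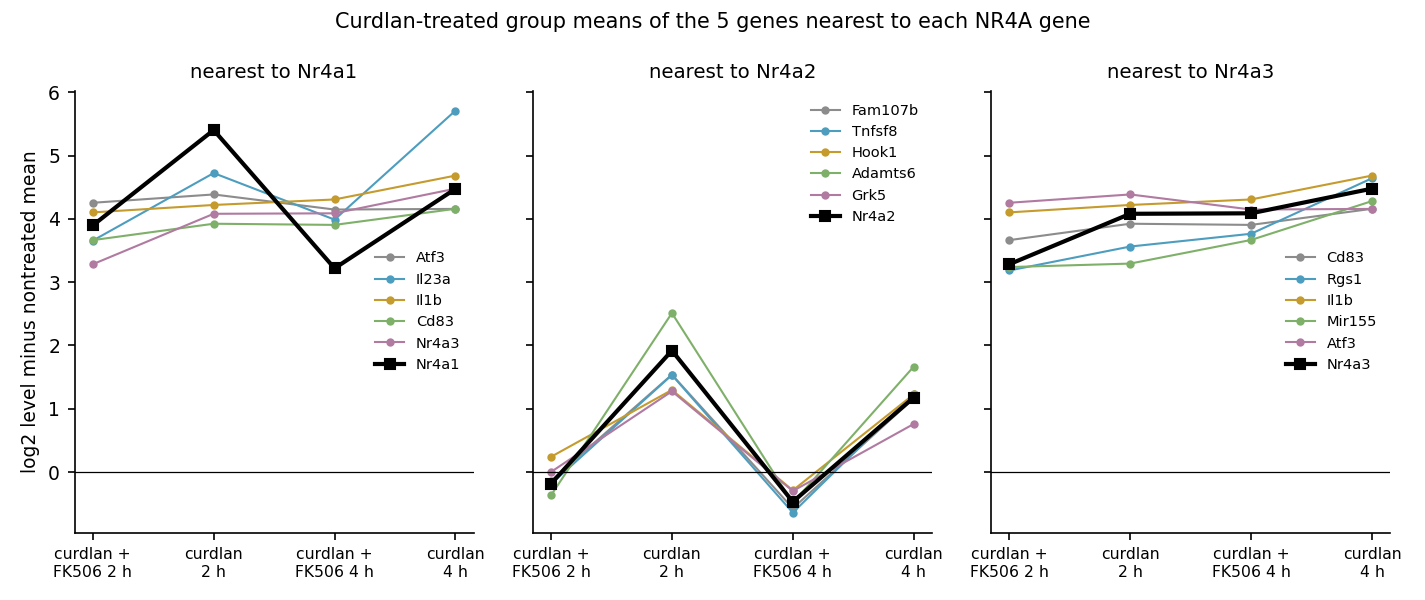
Log2 group mean minus the nontreated mean (vertical axis) in the 4 curdlan-treated groups (horizontal axis) for each NR4A gene (black squares) and the 5 genes nearest to it; lines join groups for reading only. With FK506 the neighbours of Nr4a2 lie between -0.64 and 0.24, beside -0.18 and -0.47 for Nr4a2 itself, and those of Nr4a3 lie between 3.18 and 4.31. The neighbours were chosen by these same means.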

How the data were processed

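The authors deposited log2 expression values of 15 arrays, and the submitters' processing notes name RMA, the affy package and R 2.15.2. Of 34760 probe sets, 21640 carried 1 symbol in the platform annotation, and the one with the highest mean represented each of 19937 genes. Quantile normalization hides any shift common to all genes, and detection calls were not used here. A model with a mean for each group, over the 15 arrays together, was then fitted (limma 3.58.1, R 4.3.3, 10 residual degrees of freedom, empirical Bayes, two-sided, Benjamini-Hochberg over all genes within each of 9 comparisons), as the study's methods name limma, an adjusted p under 0.05 and a 1.5-fold threshold. The fit was tested on simulated data. The number of arrays limits precision, with a median standard error of 0.077 log2.

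The members and gene lists were chosen with earlier results of these data known. Genes were named by a rule: all members, up to 4 called genes of a list and comparison or 2 where none was called, the 5 genes most like each member by 2 measures, and a fixed set. Single further list genes were named after their values were seen. Replicate numbers did not pair the arrays, since deviations of same-numbered arrays correlated above 0.1 in 9 of 30 pairs. Alternatives were a replicate block, each array left out, other normalization, filters, features tested, probe set rule, variance trend, array weights, fewer groups and a stricter threshold. Leaving out both arrays that stood apart was added after seeing the data.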

Additional observations from a re-analysis of the deposited data

Results flagged for a closer look

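The FK506 effect on Nr4a2 differed between the times by a test of the difference itself. It was -1.65 at 4 h and -2.10 at 2 h, a difference of 0.456 on the log2 scale (SE 0.0775, 3 arrays per group, limma adjusted p = 0.00366), with adjusted p between 1.07e-05 and 0.0182 over the alternatives. The difference lay under the 1.5-fold threshold. The curdlan rise of Nr4a2 was also smaller at 4 h (1.18) than at 2 h (1.92). With FK506 the gene stood below nontreated cells at both times (-0.18 at 2 h and -0.47 at 4 h, not called). Groups of 3 arrays are too small for the test of single outlying arrays.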

How the results depend on the processing

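Each of the 27 values (3 genes in 9 comparisons) kept its direction and its call (adjusted p and fold together) in all 26 alternatives, 702 values in all. Many of these could not move a member's fold. Each member has 1 probe set, and arrays outside the groups compared, filters, the variance trend and the stricter threshold leave the fold as it was. Leaving out 1 array gave 5.35 to 5.45 for Nr4a1, 1.87 to 1.98 for Nr4a2 and 3.94 to 4.16 for Nr4a3 with curdlan at 2 h. The FK506 effect at 2 h was then -1.55 to -1.47, -2.16 to -2.05 and -0.85 to -0.75 for the same genes. With a replicate block the FK506 effects were as before, with an adjusted p of 0.000309 for Nr4a3 at 2 h and 0.0223 at 4 h, and the block changed no call of a member. It moved the count of genes lowered by FK506 at 2 h to 151, against 152 without it.

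The adjusted p of Nr4a3 with FK506 at 4 h ran from 1.93e-05 to 0.0538 and its fold never reached 1.5. That of Nr4a2 with FK506 at 2 h against nontreated cells ran from 0.00267 to 0.156. The adjusted p of the time difference ran from 0.000164 to 0.253 for Nr4a3 and from 0.0137 to 0.399 for Nr4a1, so that both crossed 0.05, among others without the arrays that stood apart. The within-array difference Nr4a1 minus Nr4a3 at 4 h against nontreated cells, -0.003, changed sign after repeated quantile normalization (0.006) and when single arrays were left out (-0.11 to 0.171). The causes were not tested. Changes of Rgs1, Fas and Mir155 against nontreated cells, of Adamts6 and Abca1 with FK506, and of Ppargc1a at 4 h rest on 1 group under log2 6, where low signals limit the size.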
